A study of Mus musculus with 36 samples.

Results

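The genes described here are 4 general pluripotency factors, Pou5f1, Sox2, Sall4 and Utf1, and 4 genes of the developmental pluripotency associated (Dppa) series, Dppa2, Dppa3, Dppa4 and Dppa5a. They were taken by name, through their Ensembl identifiers, from a count table of 49671 genes, and all 8 were found and were among the 17702 genes that passed the filter on low counts. The measurements are RNA-seq read counts from 36 libraries of mouse embryonic stem cells, labelled as wild type of the strain 129m. The cells were grown on soft or on stiff StemBond hydrogels (polyacrylamide with the extracellular matrix tethered stably to it) or on tissue culture plastic. All the media held serum, and differed in LIF, the cytokine that sustains self-renewal of mouse embryonic stem cells in serum, and in PD03 (PD0325901), an inhibitor of the kinase MEK. At 24 h there was a soft and a stiff group in serum + LIF. At 48 h both gels were used with serum alone, with LIF, with PD03 and with LIF and PD03 together, and plastic was used in serum + LIF. Each of these 11 groups had 3 libraries, except serum + PD03 on soft gels, which had 6. No group lacked serum, plastic was used in 1 medium only, and the cells carried no engineered change according to the labels. The labels do not say whether libraries of 1 group came from separate cultures, so the p-values measure only the spread between these libraries, which may be technical.

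Pou5f1 encodes Oct4, which binds DNA together with Sox2 at many enhancers of pluripotent cells, and both are needed for the pluripotent state. Sall4 is a zinc finger factor that sustains self-renewal, and Utf1 is a chromatin-associated protein of the epiblast, the germ line and stem cells whose gene is a known target of Oct4 and Sox2. Dppa2 and Dppa4 encode neighbouring, related SAP-domain proteins that act as a pair on chromatin. Dppa3 (Stella) protects DNA methylation in the zygote and marks early germ cells and naive stem cells, and Dppa5a encodes a KH-domain RNA-binding protein of early embryos. MEK lies below FGF receptors in the ERK pathway, which promotes exit from naive pluripotency.

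In GRCm38, the build the submitters name (as mm10), Pou5f1 (ENSMUSG00000024406) lies on chr17:35506018-35510772 of the plus strand and Sox2 (ENSMUSG00000074637) on chr3:34650405-34652461 of the plus strand, inside the long transcript unit Sox2ot but sharing none of its exons. Sall4 (ENSMUSG00000027547) lies on chr2:168748332-168767943, minus strand, and Utf1 (ENSMUSG00000047751) on chr7:139943789-139945112, plus strand. Dppa4 (ENSMUSG00000058550) and Dppa2 (ENSMUSG00000072419) are neighbours on the plus strand, at chr16:48283733-48294237 and chr16:48303908-48319723. Dppa3 (ENSMUSG00000046323) is on chr6:122626410-122630272, plus strand, and Dppa5a (ENSMUSG00000060461) on chr9:78367052-78368177, minus strand. Reads of a gene with near-identical copies may be split or dropped in counting, so the copies were listed from an alignment of transcripts at 95% identity or more over at least 100 bases. Dppa5a had 7 such matches, among them the protein-coding gene Pigp and otherwise pseudogenes, that together covered 86.4% of its transcript. They held 3292 counts over all libraries, against 436543 for Dppa5a itself. Of the 3292, 3008 were counts of Pigp, which need not be reads of Dppa5a. Dppa2, Dppa3 and Dppa4 had 2 copies each, matching 37%, 54.1% and 56.9% of their transcripts and holding 1210, 282 and 154 counts against 136744, 27762 and 59420. Utf1 and Sox2 had none, and Pou5f1 and Sall4 overlapped antisense or opposite-strand genes over 14.1% and 9.5% of their exon length, with 84 and 1035 counts. The strand setting of the counting is not given in the sources used here, and how it treated reads with several matches is not given either, so the levels of these 6 genes carry that uncertainty.

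A promoter entry was found in the RefSeq tables for 3 of the 8 genes, Utf1, Sox2 and Pou5f1. They are shown because Utf1 had the widest range of levels of the 8 genes, while Sox2 and Pou5f1 varied little, although all 3 belong to one regulatory circuit. The sequences are RefSeq's for GRCm38.p6, plus strand, and end just before the first annotated start of each gene. Capitals mark the GC box, searched as GGGCGG on both strands.
Utf1, chr7:139943606-139943788: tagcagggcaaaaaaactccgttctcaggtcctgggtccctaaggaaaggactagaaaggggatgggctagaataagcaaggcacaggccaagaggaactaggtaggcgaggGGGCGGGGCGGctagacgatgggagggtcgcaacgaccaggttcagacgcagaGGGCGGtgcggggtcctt
Sox2, chr3:34649745-34649994: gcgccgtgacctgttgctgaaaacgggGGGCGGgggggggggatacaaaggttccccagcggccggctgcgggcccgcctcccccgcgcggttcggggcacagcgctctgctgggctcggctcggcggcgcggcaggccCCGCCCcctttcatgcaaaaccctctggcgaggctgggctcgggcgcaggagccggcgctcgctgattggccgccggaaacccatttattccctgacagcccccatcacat
Pou5f1, chr17:35505782-35506017: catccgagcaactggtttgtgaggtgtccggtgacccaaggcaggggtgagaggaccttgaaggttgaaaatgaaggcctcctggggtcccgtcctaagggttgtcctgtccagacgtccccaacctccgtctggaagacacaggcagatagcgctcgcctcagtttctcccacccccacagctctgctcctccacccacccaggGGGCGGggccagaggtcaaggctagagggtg
The Utf1 stretch of 183 bases held 3 GC boxes, 2 of which overlap. Of all 32851 promoters in the table, 21.5% had at least 1 in the same window. The Sox2 stretch held 2 (32.7% of promoters had any) and the Pou5f1 stretch held 1 (30.8%). The octamer ATGCAAAT, the TATA box TATAAA and the E box CACGTG were searched on both strands as well and not found in these 3 windows. The CCAAT box, searched as CCAAT on both strands, was found once, upstream of Sox2, as in 33.8% of all promoters over that window. These matches describe the letters only.

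Total counts per library ranged from 10405696 to 26635239, and the 8 genes together took 0.3% to 0.386% of a library. Of the libraries, stiff serum library 2 had 0.57% mitochondrial counts beside 1.2% and 1.34% in its group, and 20970 genes detected beside 24251 and 22691. Soft serum + LIF library 2 had 0.63% mitochondrial counts beside 1.1% and 1.44%. Results between gels that change without either library are given below. The 5 markers chosen for embryonic stem cells (Nanog, Zfp42, Esrrb, Tdgf1 and Fgf4) were at or above 106 counts per 1000000 (CPM) in every library. Levels below are CPM on library sizes scaled by the trimmed mean of M values (TMM). Differences are log2 fold changes ± SE from edgeR's quasi-likelihood test, with p-values adjusted (Benjamini-Hochberg) over 17702 genes and called below 0.05. The test gives no SE, so the SE was derived as the size of the log2 fold change over the square root of its F statistic. Intervals were built from that SE with a t quantile. The labels name 3 library pools. All 24 h and plastic libraries share 1 pool with 1 stiff serum + LIF library of 48 h, the other stiff libraries lie in the second with 2 of the 6 soft serum + PD03 libraries, and the remaining soft libraries lie in the third. The pool and the gel at 48 h therefore can hardly be told apart, while the 24 h pair, PD03 on stiff gels without LIF and PD03 on soft gels with LIF lie within 1 pool. Columns of the table do not tell which library of a group was in which pool, so a fit with pool as a term was run for all 45 possible assignments. Comparisons below share groups with each other, and each is given with its own values.

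Per kilobase of exon, Dppa5a had the highest mean level of the 8 genes, 1070 CPM per kb averaged over all libraries. It was followed by Utf1 (304), Pou5f1 (263), Sall4 (218) and Sox2 (144), then Dppa2 (85.8), Dppa4 (55.4) and Dppa3 (46.4). Measured along the longest transcript in place of the union of exons, Pou5f1 came to 434 CPM per kb and passed Utf1, which stayed at 304. The ratio of the highest to the lowest group mean separated the genes more sharply. It was 5.75 for Utf1, 5.1 for Dppa3 and 2.68 for Dppa4, against 1.73 for Dppa5a, 1.51 for Sall4, 1.38 for Sox2, 1.31 for Pou5f1 and 1.23 for Dppa2.

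**Figure D1:**
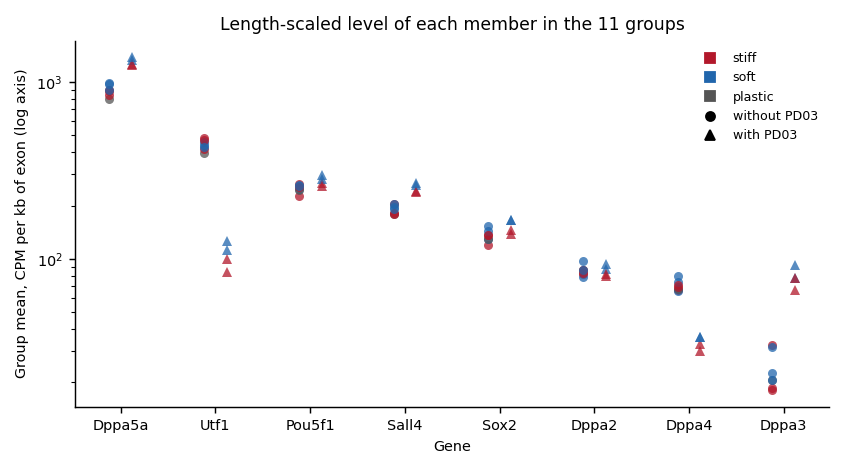
Group mean level of each gene in CPM per kb of exon (log axis) over the 11 groups, 1 point per group. Dppa5a sits highest, near 1070 CPM per kb on average over all libraries, and Utf1, Dppa3 and Dppa4 spread most between groups.

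When the 11 groups were ranked by level, the 4 groups with PD03 stood at 1 end for 5 genes. They were lowest for Utf1 and Dppa4 and highest for Sall4, Dppa3 and Dppa5a. For Utf1, the 7 groups without PD03 overlapped their neighbours in rank, while each step below them separated groups whose libraries did not overlap. Those 4 steps ran from plastic to soft serum + PD03, soft serum + LIF + PD03, stiff serum + PD03 and stiff serum + LIF + PD03. For Pou5f1, none of the 10 pairs of neighbouring groups was free of overlap. Dppa2 had 1 such pair, Sall4 and Dppa5a had 2 each, and Sox2, Dppa3 and Dppa4 had 4 each.

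**Figure D2:**
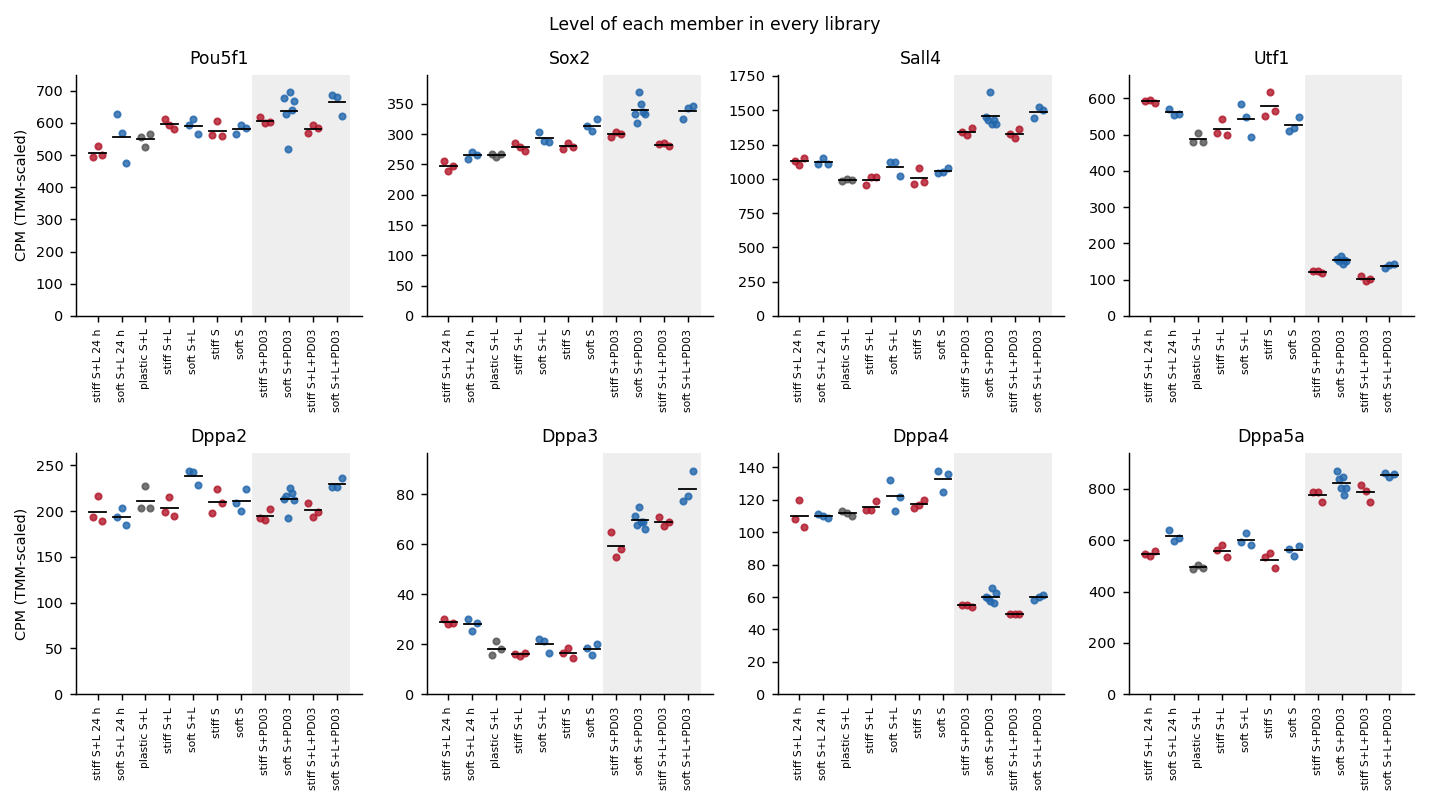
Level of each of the 8 genes in CPM in every library (points) of the 11 groups, with the group mean as a black line, red for stiff, blue for soft, grey for plastic and grey shading for media with PD03 (S, serum; L, LIF). Utf1 and Dppa4 are low and Dppa3, Sall4 and Dppa5a high in the shaded groups, while the group means of Pou5f1 and Dppa2 stay within 1.31-fold and 1.23-fold.

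PD03 was compared with its absence at 48 h on each gel, with and without LIF, which asks how MEK inhibition moved these genes in serum. Utf1 and Dppa4 fell and Dppa3, Dppa5a and Sall4 rose in all 4 comparisons. Sox2 and Pou5f1 rose by small amounts on soft gels and did not pass on stiff gels, and Dppa2 passed in none. Of the 8 genes, 5 were higher and 2 lower on soft gels without LIF, where 57.5% of all genes tested passed the threshold. The counts were 3 and 2 on stiff gels without LIF (55.8% of all genes), 5 and 2 on soft gels with LIF (54.4%) and 3 and 2 on stiff gels with LIF (56.2%). Since more than every other gene passed, the number called among the 8 is close to the background, and the description rests on the sizes. In bulk libraries, fewer cells expressing a gene and less of its RNA per cell cannot be told apart.

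Utf1 made the largest fall. On stiff gels without LIF the libraries were at 550, 616 and 566 CPM in serum and at 123, 123 and 119 CPM in serum + PD03. On soft gels they were at 511, 517 and 547 CPM in serum, against a lowest of 144, a median of 153 and a highest of 165 CPM over the 6 libraries in serum + PD03. No library with PD03 came near any without it. The log2 change was -2.24 ± 0.056 on stiff and -1.77 ± 0.044 on soft gels (edgeR, adjusted p = 1.03e-35 and 1.06e-35), or 0.211 and 0.294 of the level in serum. With LIF the stiff libraries went from 503, 542 and 500 CPM to 110, 96 and 102 CPM, a change of -2.33 ± 0.056. The soft libraries went from 585, 549 and 493 CPM to 131, 140 and 142 CPM, a change of -1.98 ± 0.055.

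Dppa3 made the largest rise. On stiff gels without LIF the libraries moved from 16.6, 18.6 and 14.6 CPM to 64.9, 55.1 and 58.2 CPM. On soft gels they moved from 18.6, 15.9 and 20.2 CPM to between 66.2 and 75 CPM, with a median of 68.9. Every library with PD03 was above every library without it. The log2 changes were 1.84 ± 0.091 on stiff and 1.93 ± 0.08 on soft gels without LIF, and 2.10 ± 0.091 and 2.02 ± 0.089 with LIF, which is 3.57-fold to 4.27-fold. The stiffness by PD03 difference was 0.097 without LIF and did not pass, and its interval reached from -0.147 to 0.341. A difference between the gels within that interval was not excluded.

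Dppa4 and Dppa2, whose proteins act as a pair, parted under PD03. On stiff gels without LIF, Dppa4 went from 115, 117 and 120 CPM to 55.1, 55.4 and 54.1 CPM. On soft gels it went from 138, 125 and 136 CPM to between 56.5 and 65.7 CPM. Its level with PD03 was 0.43 to 0.488 of that without in the 4 comparisons. The log2 changes were -1.10 ± 0.057 and -1.14 ± 0.046 without LIF and -1.22 ± 0.057 (stiff) and -1.04 ± 0.056 (soft) with LIF. Dppa2 was at 198, 224 and 209 CPM in serum on stiff gels and at 192, 190 and 202 CPM with PD03. Its 4 log2 changes lay between -0.109 and 0.014, and their 95% intervals together ran from -0.223 to 0.113.

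Dppa5a and Sall4 rose by similar amounts everywhere. Dppa5a went from 533, 549 and 491 CPM in serum on stiff gels to 790, 787 and 751 CPM with PD03, a log2 change of 0.57 ± 0.047. The other 3 changes of Dppa5a were 0.55, 0.51 and 0.49. Sall4 went from 962, 1080 and 979 CPM to 1340, 1320 and 1370 CPM on the same gels, a change of 0.42 ± 0.047, and its other changes were 0.46, 0.46 and 0.42. For both genes the groups with and without PD03 did not overlap in any of the 4 comparisons. The adjusted p was at most 1.15e-10 for Sall4 and 3.76e-13 for Dppa5a (edgeR).

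The core factors moved little. Sox2 was at 304, 289 and 287 CPM in serum + LIF on soft gels and at 325, 344 and 346 CPM with PD03 added, a log2 change of 0.21 ± 0.044 (edgeR, adjusted p = 9.33e-05). Without LIF the change on soft gels was 0.114 ± 0.038 (adjusted p = 0.00963), and it fell out of the calls when soft serum library 1 (change 0.099) or 2 (0.084) was left out. On stiff gels the changes of Sox2 were 0.098 and 0.021, neither past the threshold (the first was called without stiff serum library 2, at 0.121, stiff serum + PD03 library 1, at 0.12, or soft serum + PD03 library 3, at 0.098), and the difference between the gels did not pass either (0.016 without and 0.184 with LIF, edgeR, adjusted p = 0.957 and 0.197). Pou5f1 changed by 0.172 ± 0.067 on soft gels with LIF (adjusted p = 0.0276). That call was lost without soft serum + LIF + PD03 library 1 or 2 (0.142 each), or without soft serum + LIF library 1 (0.167) or 3 (0.127). Without LIF its change was 0.136 ± 0.059 (adjusted p = 0.0438), a call that held in 7 of 36 fits that each left out 1 library, over which the change ran from 0.103 to 0.19. Markers of other cells moved with PD03 too. Of the 3 trophoblast markers 2 or 3 were higher. They summed to 9.17 to 18.5 CPM on the gels at 48 h without PD03 and to 31.4 to 77.7 CPM with it, and Elf5 stayed between 0 and 0.861 CPM. Of 3 mesoderm markers 2 were lower in each comparison, and the list summed to 12.7 to 20 CPM on the gels at 48 h without and 3.69 to 5.29 CPM with PD03, with Mesp1 at 0 to 0.39 CPM. Of 5 primitive endoderm markers 0 or 1 were higher and 2 or 3 lower, of 3 neural markers 1 was higher and 1 or 2 lower, and of 3 fibroblast markers 1 or 2 were higher and 1 lower. Of the 5 stem cell markers 3 or 4 were higher and 1 lower. The part of these markers in the changes of the 8 genes was not tested. Fits with a pool term kept the calls of Utf1, Dppa3, Dppa4, Dppa5a and Sall4 in all 45 assignments, in each of the 4 comparisons. PD03 on stiff gels without LIF and on soft gels with LIF each lie within 1 pool, so the term could not move their estimates. On soft gels with LIF the calls of Sox2 and Pou5f1 were thus kept at an unchanged 0.206 and 0.172, which does not test the pool. On soft gels without LIF the call of Sox2 held in 33 assignments and that of Pou5f1 in 15. Without the filter on low counts Sox2 was not called on soft gels without LIF (edgeR, adjusted p = 0.0639).

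**Figure D3:**
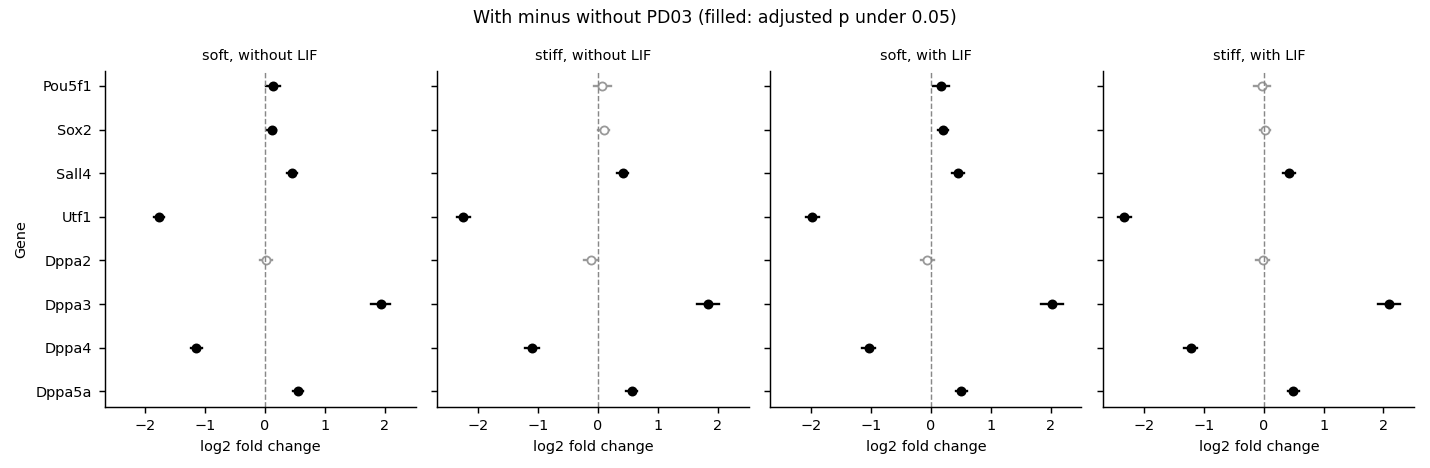
Log2 fold change with PD03 against without (points) with 95% intervals (bars) for the 8 genes on each gel, without and with LIF; filled points have an adjusted p under 0.05. Utf1 and Dppa4 lie left of 0 and Dppa3, Dppa5a and Sall4 right of it in all 4 panels, at -2.33 for Utf1 and 2.10 for Dppa3 on stiff gels with LIF.

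Soft gels were compared with stiff gels in the same medium in 5 pairs of groups, the question for which the gels were made. Every change among the 8 genes that passed the test was higher on soft gels, and all but those of Utf1 were 1.2-fold or less. In serum + LIF at 24 h 1 gene passed (Dppa5a), where 3.55% of all genes tested passed in either direction. In serum + LIF at 48 h it was 1 (Dppa2, against 0.78% of all genes), in serum 2 (Sox2 and Dppa4, against 4.85%), in serum + PD03 3 (Sox2, Utf1 and Dppa3, against 5.55%) and in serum + LIF + PD03 6, all but Pou5f1 and Dppa5a (against 7.61%). The median log2 difference of the 8 genes was -0.007, 0.094, 0.087, 0.132 and 0.22 in that order, beside -0.002, -0.003, 0.002, 0.010 and 0.005 for all genes tested. Groups did not overlap for 3, 4, 3, 5 and 8 of the 8 genes, where 17.1%, 14.9%, 20.4%, 11.6% and 24.8% of all genes tested had groups without overlap.

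Sox2 was the most regular of them. In serum + LIF + PD03 the stiff libraries were at 284, 285 and 280 CPM and the soft libraries at 325, 344 and 346 CPM. In serum they were at 276, 285 and 279 CPM and at 313, 305 and 325 CPM. All soft libraries lay above all stiff libraries in each of the 5 pairs. The differences were 0.103 ± 0.045 at 24 h and 0.073 ± 0.045 at 48 h in serum + LIF, neither called, then 0.166 ± 0.044 in serum. With PD03 they were 0.182 ± 0.039 without LIF and 0.258 ± 0.044 with LIF (edgeR, adjusted p = 0.0162 in serum, then 0.00128 and 3.43e-05). With a pool term these 3 calls held in 12, 24 and 24 of the 45 assignments, with differences from 0.074 to 0.38. The call in serum was also lost without stiff serum library 1 (0.149) or 3 (0.156) or soft serum library 1 (0.171) or 3 (0.14). Pou5f1, its partner, differed by 0.133, -0.016, 0.012, 0.071 and 0.189 and passed in none. Its value at 24 h became 0.042 without soft library 1 and 0.244, a call, without soft library 3. The value in serum + LIF + PD03 ranged from -0.039 to 0.352 over the pool assignments and was called in 6 of them, and it was called without soft 24 h library 3 (0.187) or soft serum + PD03 library 3 (0.189). Without the filter on low counts it was called as well (edgeR, adjusted p = 0.0178).

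Utf1 was called in the 2 media with PD03 only. With PD03 it was higher on soft gels by 0.338 ± 0.049 without LIF and 0.424 ± 0.055 with LIF (edgeR, adjusted p = 1.62e-06 and 1.21e-07), 1.26-fold and 1.34-fold. These were the only soft against stiff calls at 48 h that held in all 45 pool assignments, where they ranged from 0.272 to 0.405 and from 0.328 to 0.527. In serum its soft libraries lay below its stiff ones without overlap, by -0.137 ± 0.052, which did not pass (adjusted p = 0.141). Sall4, called in serum + LIF + PD03 only, was at 1330, 1300 and 1360 CPM on stiff and 1440, 1520 and 1500 CPM on soft gels, a difference of 0.165 ± 0.047 (adjusted p = 0.0195). That call held in 15 of 45 pool assignments and was lost without any 1 of the 3 stiff libraries of this medium (0.148 to 0.181) or without soft library 2 (0.148) or 3 (0.155). In serum + PD03 Sall4 differed by 0.117 ± 0.041 without overlap, which did not pass (edgeR, adjusted p = 0.0904). With a pool term that difference was called in 15 of the 45 assignments.

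Dppa3 was at 64.9, 55.1 and 58.2 CPM on stiff gels in serum + PD03 and between 66.2 and 75 CPM on soft gels, a difference of 0.236 ± 0.069 (edgeR, adjusted p = 0.0299). In serum + LIF + PD03 it was at 71.1, 67.4 and 68.9 CPM against 77.5, 79.2 and 89.5 CPM, a difference of 0.247 ± 0.077 (adjusted p = 0.0348). The groups did not overlap in either medium. These calls held in 25 and 31 of 36 fits that left out 1 library, over which the differences ran from 0.18 to 0.302 and from 0.178 to 0.287, and in 3 and 0 of the 45 pool assignments. Without PD03 the gene differed by -0.05, 0.318 and 0.139, none called, and the value of 0.318 in serum + LIF at 48 h became 0.455 and was called without soft library 3, which was at 16.7 CPM beside 22.2 and 21.5.

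Dppa4 in serum + LIF + PD03 was at 49.8, 49.8 and 49.6 CPM on stiff and 57.9, 59.9 and 61.5 CPM on soft gels, a difference of 0.265 ± 0.058 (edgeR, adjusted p = 0.00119). In serum the difference was 0.179 ± 0.053 (adjusted p = 0.0371), a call lost without any 1 stiff serum library (0.161 to 0.19), without soft serum library 1 (0.154) or 3 (0.16), or without soft library 1 of 24 h (0.173). Its neighbour Dppa2 was called where Dppa4 was also called, in serum + LIF + PD03 (0.194 ± 0.056, adjusted p = 0.0221), and in serum + LIF at 48 h (0.23 ± 0.057, adjusted p = 0.033), where Dppa4 was not. In the latter medium Dppa2 was at 199, 215 and 195 CPM on stiff and 244, 243 and 228 CPM on soft gels. That call was lost without stiff library 1 (0.229) or 3 (0.216) or soft library 1 (0.23) or 2 (0.221), and the call in serum + LIF + PD03 without stiff library 2 (0.169) or 3 (0.188) or soft library 2 (0.202) or 3 (0.172). With a pool term the Dppa2 call in serum + LIF at 48 h held in 0 of the 45 assignments. That of Dppa2 in serum + LIF + PD03 held in 3. The Dppa4 calls held in 3 in serum and in 15 in serum + LIF + PD03. In serum + PD03 Dppa2 differed by 0.13 ± 0.05, which did not pass (edgeR, adjusted p = 0.127) but was called without soft serum + PD03 library 3.

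Dppa5a was the gene called at 24 h, the pair that lies within 1 pool. It was at 545, 540 and 559 CPM on stiff and 640, 598 and 608 CPM on soft gels, without overlap, and the difference was 0.167 ± 0.047 (edgeR, adjusted p = 0.0265). The call was lost without any 1 of the 3 stiff libraries (0.159 to 0.185) or without soft library 1 (0.14) or 3 (0.181). At 48 h its 4 differences lay between 0.085 and 0.121, none called.

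**Figure D4:**
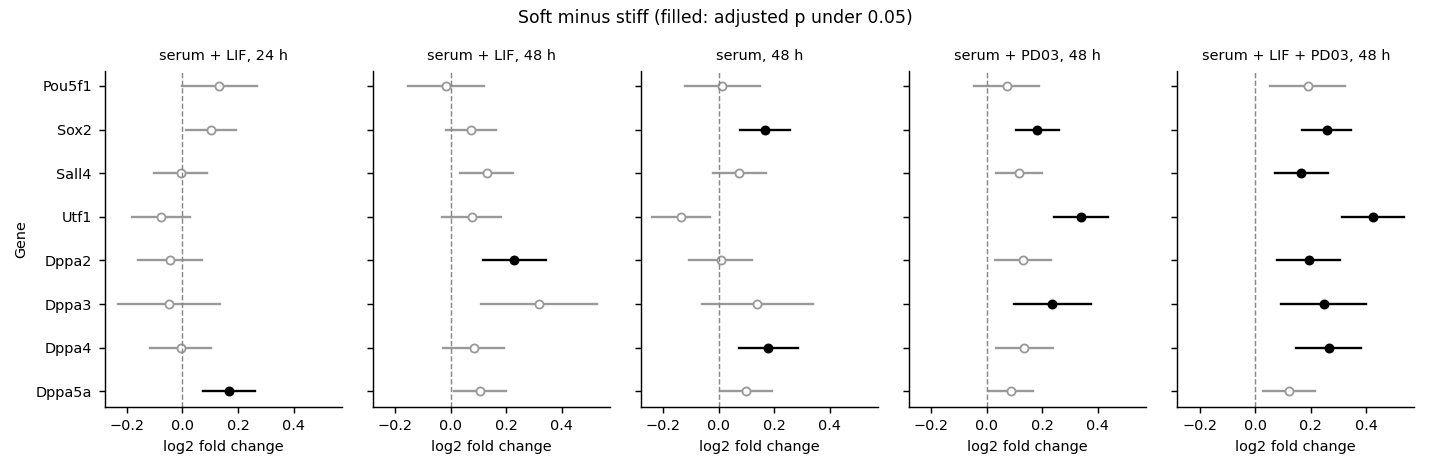
Log2 fold change on soft against stiff gels (points) with 95% intervals (bars) for the 8 genes in each medium and time; filled points have an adjusted p under 0.05. In serum + LIF + PD03 all 8 points lie right of 0, with Utf1 farthest at 0.424, and at 24 h the median is -0.007.

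Markers of other cells moved with the gels. Of the fibroblast list, 3 genes were tested and Twist2 was not (0 to 0.52 CPM). Of those 3, 1, 1, 2, 2 and 2 were lower on soft gels in the 5 pairs and 0 higher. The list summed to 21.2 to 28 CPM on soft and 43 to 51.2 CPM on stiff gels in serum, and to 26.9 to 39.8 and 82.2 to 87.6 CPM in serum + LIF + PD03. The trophoblast list, of which 1, 0, 1, 2 and 1 of 3 genes were lower and 0 higher on soft gels, summed to 31.4 to 40.2 CPM on soft and 58 to 64 CPM on stiff gels in serum + PD03. The embryonic stem cell markers were higher on soft gels for 3, 0, 4, 3 and 4 of the 5 genes, and none was lower. Of 3 mesoderm and 5 primitive endoderm markers tested, 0 passed in any of the 5 pairs. Of 3 neural markers, 0, 1, 1, 0 and 1 were higher and 1, 0, 1, 0 and 0 lower. The part of these markers in the differences of the 8 genes was not tested.

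Whether PD03 acted alike on both gels was tested as an interaction. Utf1 alone of the 8 genes passed, in both media. Its fall under PD03 was smaller on soft gels by 0.475 ± 0.071 on the log2 scale without LIF (edgeR, adjusted p = 4.29e-05) and by 0.348 ± 0.076 with LIF (adjusted p = 0.00734). Of all genes tested, 0.797% and 1.07% passed these interactions in either direction. Without LIF the call held in all 45 pool assignments (0.439 to 0.505) and in all 36 fits that left out 1 library. With LIF it held in 44 of 45 (0.309 to 0.369) and in 31 of 36. It was lost there without stiff serum + LIF library 2 (0.291), stiff serum + LIF + PD03 library 2 (0.288), soft serum + LIF + PD03 library 2 (0.31) or 3 (0.308), or soft serum + LIF library 3 (0.26). Even at its smaller fall, soft gels held Utf1 at 0.294 of its level in serum. At an unadjusted p under 0.05 edgeR had 1 of the 8 genes in the interaction without LIF and 4 in that with LIF. Besides Utf1 the latter were Pou5f1 (0.205, interval 0.013 to 0.397), Sox2 (0.184, 0.058 to 0.311) and Dppa4 (0.182, 0.023 to 0.341). These did not pass after adjustment.

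The gels were compared with plastic in serum + LIF at 48 h, where the libraries on plastic lie in another pool than all soft and most stiff libraries. Of the 8 genes, 4 were higher on soft gels than on plastic and 0 lower (11.8% of all genes tested passed in either direction), and 1 was higher on stiff gels (5.54%). The libraries on plastic held 2.27% to 2.92% mitochondrial counts, against 0.63% to 1.44% on the gels in that medium and time, and 2.45% to 3.19% of counts in the gene Gm26917, against 1.17% to 1.84%. Of the fibroblast markers 2 were lower and 1 higher on each gel than on plastic, and the list summed to 66 to 76.8 CPM on plastic, 31 to 38.3 on stiff and 23.5 to 28.3 on soft gels. Of the neural markers 2 were lower on each gel and 1 was higher on soft gels, of the 5 primitive endoderm markers 2 were higher on soft and 3 on stiff gels, and of the mesoderm markers 1 was higher on soft gels. Of the stem cell markers 4 were higher on soft and 2 on stiff gels, and 0 trophoblast markers passed. The part of these differences in those of the 8 genes was not tested. Dppa5a was higher on both gels. It was at 489, 502 and 491 CPM on plastic, 562, 581 and 534 CPM on stiff and 593, 630 and 580 CPM on soft gels, with no overlap between plastic and either gel. The differences were 0.283 ± 0.047 for soft (edgeR, adjusted p = 1.07e-05) and 0.179 ± 0.047 for stiff (adjusted p = 0.0113). The other calls on soft gels were Sox2 (0.143, adjusted p = 0.0271), Dppa2 (0.175, adjusted p = 0.0346) and Utf1 (0.152, adjusted p = 0.0494). With a pool term Dppa5a on soft gels kept its call in 12 of 45 assignments, Sox2 in 1 and the other 2 in 0, and Utf1 and Dppa2 reached -0.009 and -0.028. Fits that left out 1 library called 1 to 5 genes on soft and 0 to 1 on stiff gels. Without soft library 1, Sox2 (0.131), Utf1 (0.111) and Dppa2 (0.174) were no longer called, and without soft library 2 the same 3 genes were lost (0.156, 0.146 and 0.165). Utf1 and Dppa2 were also lost without plastic library 1 (0.154 and 0.162) or 3 (0.157 and 0.163), and Sox2 without plastic library 2 (0.142). The Utf1 call held in only 25 of the 36 fits. It was also lost without libraries outside the comparison, any stiff serum + PD03 library or soft serum + PD03 library 1, 2, 5 or 6. Utf1 libraries on plastic (480 to 505 CPM) and on soft gels (493 to 585 CPM) overlapped. Dppa5a lost its call on stiff gels without plastic library 1 (0.172) or 3 (0.176) or stiff library 1 (0.177) or 2 (0.147).

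LIF was compared with its absence at 48 h, which asks what the cytokine added within 2 days in serum. Of the 8 genes, 0 passed on soft gels without PD03 (0.0169% of all genes tested), 0 on stiff gels without PD03 (1.41%), 0 on soft gels with PD03 (0.107%) and 1, Utf1, on stiff gels with PD03 (0.514%). At an unadjusted p under 0.05 edgeR had 4, 1 and 3 genes in the first 3 of these, and DESeq2 called 0, 1 and 0. Utf1 was at 123, 123 and 119 CPM in serum + PD03 on stiff gels and at 110, 96 and 102 CPM when LIF was added, without overlap, a change of -0.248 ± 0.056 (edgeR, adjusted p = 0.0179) within 1 pool. The call was lost without any 1 of the 3 serum + PD03 libraries (-0.237 to -0.259) or without serum + LIF + PD03 library 2 (-0.206) or 3 (-0.245). Utf1 changed by -0.163 on soft gels with PD03 and by -0.165 on stiff gels without it, also without overlap and not past the threshold (adjusted p = 0.249 and 0.111, edgeR). Dppa3 changed by 0.234 and 0.223 with LIF in the presence of PD03, on soft and stiff gels, and was not called (adjusted p = 0.222 and 0.296, edgeR).

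None of the 8 genes passed the test that LIF acted differently on the gels, either without PD03 (0.0847% of all genes) or with it (0.00565%). None passed the test that LIF changed the response to PD03, on soft (0.0226%) or stiff gels (1.09%). At an unadjusted p under 0.05 edgeR had 2, 0, 1 and 0 genes in these 4 interactions, and DESeq2 called 0 in each. The largest in size was 0.259 for Dppa3 in the LIF by PD03 interaction on stiff gels, with an interval of -0.004 to 0.522. In the LIF by stiffness interaction without PD03, Dppa2 reached 0.224 (0.062 to 0.386) and Utf1 0.213 (0.064 to 0.362). The Utf1 value became 0.299 and was called without soft serum + LIF library 3.

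Serum + LIF at 48 h was compared with 24 h on each gel. Dppa3 fell on both. It was at 30.1, 25.5 and 28.7 CPM at 24 h on soft gels and at 22.2, 21.5 and 16.7 CPM at 48 h, and on stiff gels it went from 30.2, 28.2 and 28.7 CPM to 16.3, 15.5 and 16.6 CPM. The changes were -0.48 ± 0.098 and -0.84 ± 0.097 (edgeR, adjusted p = 0.000191 and 1.66e-09). Sox2 rose on both, by 0.145 ± 0.045 and 0.174 ± 0.045. On soft gels Dppa2 (0.30) and Dppa4 (0.158) rose as well, so that 3 genes rose and 1 fell, where 24.4% of all genes tested passed. On stiff gels Pou5f1 rose (0.233) and Sall4 (-0.188) and Utf1 (-0.201) fell, 2 genes up and 3 down, where 25.6% passed. The 2 times were in different pools except for 1 stiff library. With a pool term the fall of Dppa3 on stiff gels was called in all 45 assignments and that on soft gels in none, and of all calls 0 or 1 held on soft and 1 to 5 on stiff gels. Without soft 48 h library 1, Sox2 (0.13) and Dppa4 (0.112) were no longer called on soft gels, and Dppa4 was also lost without soft 24 h library 2 (0.167) or 3 (0.16). Markers moved with time as well. Of the stem cell markers 2 were higher and 2 lower on soft gels and 2 higher on stiff gels. Of the fibroblast markers 1 was higher on each gel and 1 (soft) or 2 (stiff) were lower, of the mesoderm markers 2 were higher on soft gels and 1 lower on stiff gels, and 1 neural and 1 trophoblast marker were lower on stiff gels. Their part in the changes of the 8 genes was not tested. None of the 8 genes passed the test that the change with time differed between the gels (0.254% of all genes passed), with 4 at an unadjusted p under 0.05 in edgeR and 0 called by DESeq2. The largest such difference was 0.367 ± 0.138 for Dppa3 (edgeR, adjusted p = 0.293). Dppa2 at 0.275 was called without soft 48 h library 3 (0.322).

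Across the 11 group means, the genes fell into sets that moved together. Pearson's r on log2 levels was 0.99 for Utf1 with Dppa4, 0.98 for Sall4 with Dppa3, 0.97 for Sall4 with Dppa5a and 0.95 for Dppa3 with Dppa5a. Utf1 and Dppa3 ran against each other (-0.93). Pou5f1 and Sox2 went together at 0.92, while r of Dppa2 with Utf1, Sall4, Dppa3, Dppa4 and Dppa5a lay between -0.03 and 0.11. All points share the split by PD03 and the pools, so these values describe the split more than 11 separate conditions.

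The genes whose pattern was most like each were sought among 10467 other genes with at least 5 CPM on average, as the 3 with the highest r over the same 11 means. For Utf1 they included Adgrl1 and Rfc5 (0.996 each). Dppa4 was most like Pla2g1b (0.996), Spred2, an inhibitor of ERK signalling, and Zfp799 (0.995 each). For Dppa3 they were Anapc10 (0.997), Ttc7b (0.995) and Triobp (0.994), for Sall4 Ubxn1 (0.997), Sulf2 (0.993) and Eif4ebp1 (0.992), and for Dppa5a Sorl1, Ildr1 and Sod2 (0.995 each). Pou5f1 had Btf3l4 (0.979), Cbfa2t2 (0.955) and Raly (0.947), Sox2 had Mcrs1 (0.947), Srebf2 (0.944) and Tcea1 (0.941), and Dppa2, whose range was the narrowest, had Zmat2 (0.923), Rad23b (0.864) and Gm7964 (0.86). These are descriptions over 11 points that share the PD03 split.

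Known partners and targets of the 8 genes were counted from lists. The list of targets shares Nanog, Zfp42, Tdgf1 and Fgf4 with the stem cell markers and Jarid2 with the chromatin factors. Of 10 tested targets of Oct4 and Sox2, 5, 1, 5, 4 and 5 were higher on soft than on stiff gels in the 5 pairs, in the order given above, and 0 were lower. Of all genes tested, 1.03%, 0.446%, 2.08%, 2.13% and 2.8% were higher there. With PD03, where 27.8% to 29% of all genes tested rose and 26.6% to 28.5% fell in the 4 comparisons, 5 rose and 4 fell on soft gels without LIF, 6 and 4 on stiff gels without LIF, 5 and 4 on soft gels with LIF and 4 and 4 on stiff gels with LIF. The 4 with the largest changes, each at its largest over these comparisons, were Nanog (2.15), the homeobox factor of naive cells, Lefty1 (-1.81), an inhibitor of Nodal signalling, Spp1 (1.68), the secreted protein osteopontin, and Fbxo15 (1.67), an F-box protein of stem cells. The median log2 change of the list by PD03 lay between -0.008 and 0.189.

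Among 19 tested paralogs of the POU, SOX and SALL families, 6 rose and 9 to 12 fell with PD03 in each of the 4 comparisons, beside the same shares of all genes, so that the number that rose is near the background, while no call of Pou5f1, Sox2 or Sall4 was lower. The largest changes over the comparisons were those of Sox3 (-4.63), Pou3f2 (4.24), Pou3f1 (-4.03) and Sox11 (-2.52), all factors better known from the nervous system or the primed epiblast. On soft against stiff gels 1 to 4 of them were higher and 0 to 2 lower. Of 10 chromatin and RNA factors that work with these genes, 7 to 10 fell with PD03 and 0 rose, where at most 28.5% of all genes fell in any comparison, with Lin28a, a repressor of let-7 microRNAs, at -1.17. Between the gels 0 of them passed in 4 of the pairs, and in serum Smarca4, the ATPase of the BAF complex, differed by -0.147 on soft gels (edgeR, adjusted p = 0.0359).

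For the Dppa genes, 3 of 7 KH-domain and maternal complex genes were tested (Nlrp5, Padi6, Khdc1a and Khdc1b were too low). All 3 rose with PD03 in each comparison (27.8% to 29% of all genes did), as Dppa5a did, and Ooep reached 1.17. Khdc3 was higher on soft gels in serum by 0.794. Of 10 cleavage-stage genes, a set that Dppa2 and Dppa4 are known to activate, 7 were tested. With PD03 0 of these rose and 6, 6, 5 and 6 fell (26.6% to 28.5% of all genes did). The largest falls were those of Zscan4b (-3.52 ± 0.729), Zscan4a (-3.24 ± 0.481) and Zscan4e (-2.99 ± 0.373), near-identical genes whose counts can be split between copies. Levels were low. The list of 10 summed to 6.48 to 19.4 CPM on the gels at 48 h without PD03 and to 1.37 to 5.46 CPM with it. Of the same 7 genes, 0 were higher and 2 lower on soft than on stiff gels in serum + LIF + PD03 and 0 passed in the other pairs. Uhrf1, a binding partner of Dppa3, was higher by 0.17 on soft gels in serum + PD03 (edgeR, adjusted p = 0.00418) and fell with PD03 by 0.127, 0.166 and 0.173 in 3 of the 4 comparisons. Dnmt1, the maintenance methyltransferase that Uhrf1 recruits, passed in no comparison of gels or of PD03.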

How the data were processed

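The authors sequenced the libraries on a HiSeq4000, aligned reads with STAR 2.5.2a to mm10, counted them per Ensembl gene with htseq-count and deposited 1 table of raw counts, the only values used here (0 of its library columns were left out). Groups follow the labels. In R 4.3.3, edgeR 4.0.16 was run on all 36 libraries with 11 groups and no covariate (filterByExpr, TMM, quasi-likelihood F-test, Benjamini-Hochberg over 17702 genes, threshold 0.05). Coordinates and exon lengths are from GENCODE on GRCm38, and copies were found with blastn 2.17.0. In simulated counts for soft against stiff gels at 24 h, run on 17702 genes, 44% of genes changed 1.2-fold and 100% of those changed 1.5-fold were recovered, with 6 false calls of 177. Alternatives were relative log expression scaling, DESeq2 1.42.0, no filter beyond 1 count, a pool term and leaving out each library. The 8 genes and all gene lists were chosen with earlier results of these data known. Named are all 8 genes, the 3 genes most alike each in pattern, and, of each list, up to 4 genes with the largest changes among those past the threshold between gels or changed by at least 1 (log2) with PD03. One gene that this rule would name is not reported here. Library numbers follow the order of columns and are only names.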

Additional observations from a re-analysis of the deposited data

Results flagged for a closer look

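Sall4 was at 1630 CPM in library 3 of serum + PD03 on soft gels, while the other 5 libraries of that group lay between 1400 and 1450 CPM. The gap to the nearest library was 0.788 of the group's range, above Dixon's 95% critical value of 0.625 for 6 samples. This was the only group large enough for the test, 1 of the 8 genes passed it, and chance alone gives such a value in about 1 of 20 groups. In the same library Sox2, Utf1 and Dppa3 were also highest of the group (369, 165 and 75 CPM) and Pou5f1 and Dppa2 lowest (519 and 192 CPM). Without it, the calls of Sall4 between PD03 and its absence held. Other results did change when this library was left out. The Dppa3 call between the gels in serum + PD03 was lost, and Dppa2 was called there. Pou5f1 between the gels in serum + LIF + PD03, Sox2 for PD03 on stiff gels without LIF and Sall4 for soft against plastic were called too.

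The response of Utf1 to PD03 differed between soft and stiff gels by the test of the difference itself, by 0.475 on the log2 scale without LIF and by 0.348 with LIF.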

How the results depend on the processing

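No paired analysis was possible because the columns of the count table carry no replicate number. Relative log expression scaling changed 0 of the 24 counts of called genes. DESeq2 changed 2 of them, LIF on stiff gels without PD03 from 0 to 1 (Utf1) and soft against plastic from 4 to 5 (Sall4). Without the filter beyond 1 count the number called between the gels went from 1 to 0 at 24 h, from 1 to 2 in serum + LIF at 48 h and from 2 to 0 in serum. In serum + LIF + PD03 it went from 6 to 7 (Pou5f1). Soft against plastic went from 4 to 5 (Sall4) and PD03 on soft gels without LIF from 7 to 6 (Sox2). It went from 0 to 1 for LIF on stiff gels without PD03, LIF on soft gels with PD03 and the stiffness by time interaction. With a pool term, over the 45 assignments, the counts between the gels were 0 in serum + LIF at 48 h (1 without the term), 0 to 1 in serum (2), 1 to 4 in serum + PD03 (3) and 1 to 4 in serum + LIF + PD03 (6), so that no assignment reached the 6. Those for soft against plastic were 0 to 1 (4), for stiff against plastic 0 to 1 (1), for 48 h against 24 h 0 to 1 on soft (4) and 1 to 5 on stiff gels (5), and for the stiffness by PD03 interaction with LIF 0 to 1 (1). Soft against plastic turned to -0.009 for Utf1 and to -0.028 for Dppa2 in the lowest assignment. Leaving out 1 library gave, between the gels, 0 to 1 at 24 h, 0 to 2 in serum + LIF at 48 h, 0 to 2 in serum, 2 to 3 in serum + PD03 and 3 to 7 in serum + LIF + PD03. It gave 1 to 5 for soft and 0 to 1 for stiff gels against plastic, 0 to 1 for LIF on stiff gels with PD03, 2 to 5 for 48 h against 24 h on soft gels, and 0 to 1 for the stiffness by PD03 interaction with LIF, the stiffness by LIF interaction without PD03 and the stiffness by time interaction. The counts for PD03 stayed at 5 to 7. Apart from the pool term and the smaller number of libraries, the cause of these changes was not tested. Depth limits Dppa3 most, the gene with the fewest counts (27762 over all libraries), and most calls between the gels are about as small as the 1.2-fold changes of which 44% were recovered in simulated counts.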
